A study of Homo sapiens with 12 samples.

Results

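The 38 genes described here carry glucose into the cell and through its main catabolic routes. They were chosen by name as the genes of glucose and lactate transport, glycolysis, the pyruvate dehydrogenase complex and the pentose phosphate pathway, and each of the 38 names had 1 row among the 60671 genes of the deposited table. RNA was sequenced from cells labelled Jurkat, a T cell acute lymphoblastic leukemia line, in 4 groups of 3 libraries. NC cells have the genotype label WT, and the study's methods describe the control as transfected with a GFP vector driven by the SFFV promoter. PTPN21 cells overexpressed PTPN21, a non-receptor protein tyrosine phosphatase, as a FLAG-tagged construct from the same kind of vector, so the construct reports a forced level and not the endogenous gene. Each kind of cell was treated for 48 h with vincristine (VCR), a drug that blocks microtubule assembly, or with its solvent DMSO, which gave NC+DMSO, NC+VCR, PTPN21+DMSO and PTPN21+VCR. No dose of VCR for the sequenced cells is given in the sources used here, and the study's methods speak of 3 replicates in each group and, for its experiments in general, of independent repeats. Whether the 3 libraries of a group came from separate cultures is not spelled out for the sequencing, so p-values measure the spread between libraries, which may be technical.

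Glucose enters through facilitative transporters, is trapped as a phosphate by hexokinase, and is committed to glycolysis by phosphofructokinase. The triose phosphates that follow yield ATP, NADH and pyruvate, which is either reduced to lactate by lactate dehydrogenase or carried into mitochondria and oxidised by pyruvate dehydrogenase. The pentose phosphate pathway leaves at glucose 6-phosphate and supplies NADPH and ribose. Leukemic lymphoblasts are known for a high glycolytic rate even where oxygen is ample, and several of these genes are known targets of HIF-1 and of MYC.

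Some facts of the whole series bear on every value. PTPN21 itself was 0.0212 to 0.0934 FPKM (fragments scaled to gene length and to the total of the library) in NC+DMSO and 0.16 to 0.569 in NC+VCR, against 7.93 to 10.5 in PTPN21+DMSO and 4.34 to 6.53 in PTPN21+VCR, which is the order the labels give. The labelled cell type had little backing from its markers: of 9 T cell markers, LCK and CD247 were listed at 0 in all 12 libraries, 6 of 9 stayed under 1 FPKM, and CD3D (61.8 to 139.7 FPKM) made up nearly all of the summed level. Of 4 epithelial or kidney markers, KRT8 (236 to 1186 FPKM), KRT18 (91.9 to 437) and EPCAM (58.3 to 122.7) were high, while CDH1 reached at most 1.83. The summed level of these 4 was 388.4 to 589.0 in NC+DMSO, 510.2 to 579.4 in PTPN21+DMSO, 1153.5 to 1359.4 in NC+VCR and 1203.3 to 1676.1 in PTPN21+VCR, so it moved with VCR, and its part in the VCR results was not tested. The B cell, fibroblast and myeloid lists stayed low, at summed levels up to 1.84, 0.0944 and 20.4 FPKM. The depth estimated from the spacing of low values was 14400000 to 16200000 fragments in NC+DMSO and 17000000 to 17900000 in NC+VCR. It was 22400000 to 23800000 in PTPN21+DMSO and 20500000 to 22100000 in PTPN21+VCR, with no overlap between any of the groups. Depth was thus higher in PTPN21 cells, and with VCR it was higher in NC cells and lower in PTPN21 cells. Depth therefore cannot be told apart from the construct or from VCR, and its part in the results was not tested. NC+DMSO replicate 3 had the lowest sum of FPKM of all libraries (520098 against 551785 to 629364) and stood apart in some of the genes below. In bulk RNA, fewer cells of a type and less RNA per cell cannot be told apart.

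The 38 genes together took 0.903% ± 0.0386 of all FPKM in NC+DMSO (SD, n = 3), 0.731% ± 0.0596 in NC+VCR, 0.969% ± 0.0519 in PTPN21+DMSO and 0.788% ± 0.022 in PTPN21+VCR. The highest VCR library (0.813%) lay below the lowest DMSO library (0.862%). Levels per length spanned a wide range, led by LDHB, ENO1 and GAPDH with means over the 12 libraries of 958, 911 and 898 FPKM. The 8 highest genes, which also included TALDO1, LDHA, TPI1, ALDOA and PGD, held between 75.2% and 85.5% of the members' FPKM in every library. At the other end, the 3 PFKFB genes, HK2, PDK1 and PDK3 had means between 1.02 and 2.84 FPKM. SLC16A3, a lactate exporter typical of highly glycolytic cells, stayed between 0 and 0.482 FPKM, and PGM1, a phosphoglucomutase, was listed at 0 in all 12 libraries. Among 120 proteasome, RNA polymerase II, ribosomal and splicing genes, 1 (PSMA8) was also listed at 0 throughout. These 2 members fell below a mean of 1 FPKM and were not tested, which left 36 of 38.

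**Figure D1:**
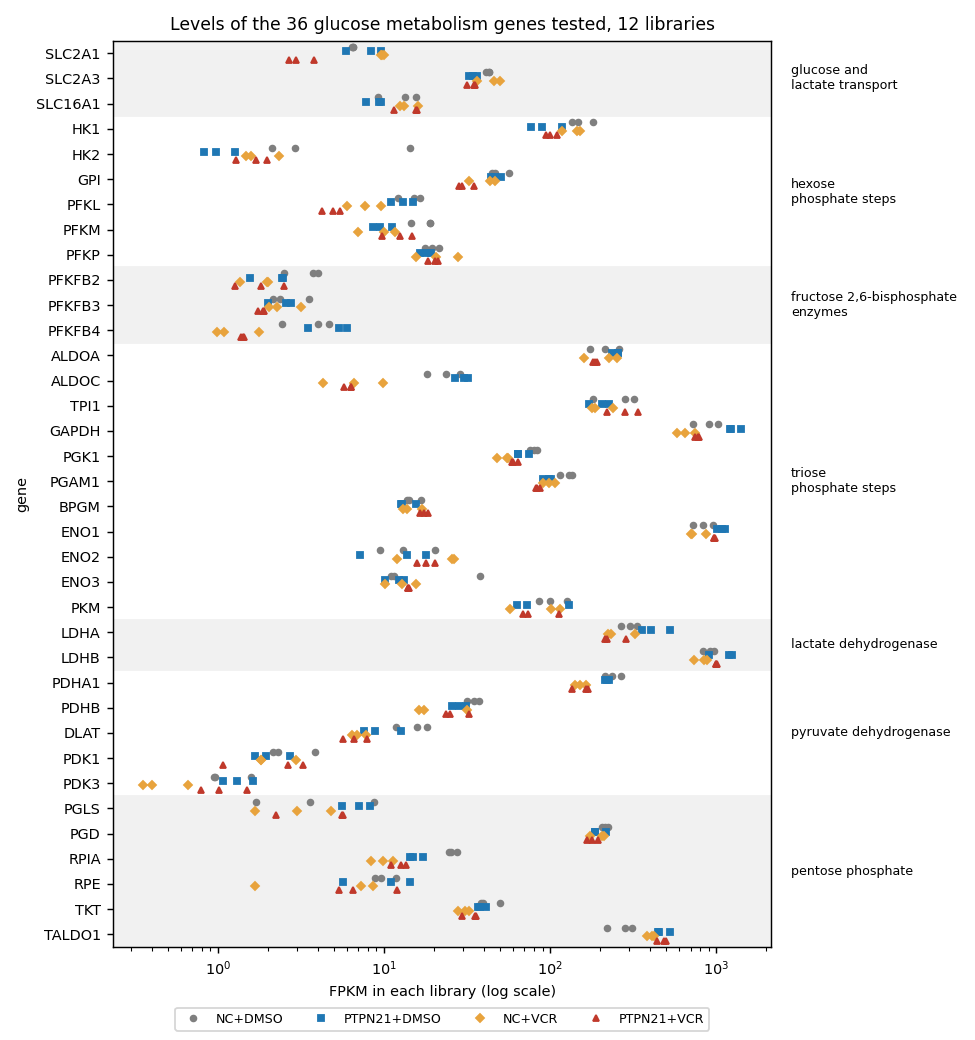
FPKM of the 36 genes tested in each of the 12 libraries on a log axis, grouped by step of the pathway, with 1 symbol per group. LDHB, ENO1 and GAPDH lie above 579 FPKM in every library and the PFKFB and PDK genes between 0.357 and 5.99, and HK2 and ENO3 each have 1 NC+DMSO library (replicate 3) far to the right of the others.

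Differences were tested on log2(FPKM + 1) with limma across all 11591 genes with a mean of at least 1 FPKM, two-sided, with Benjamini-Hochberg adjustment and a threshold of 0.05. On this scale the change of a gene with low FPKM comes out too small. VCR moved much of the transcriptome. In NC cells 36.2% of all genes tested passed, 7.91% higher and 28.3% lower with VCR, and the median of all genes shifted by -0.36 on the log2 scale. In PTPN21 cells 28.5% passed, 9.22% higher and 19.3% lower, with a median of -0.17. With libraries scaled by the median ratio, the medians were -0.04 and -0.01, and the share of calls that were higher went from 21.9% to 55.8% in NC cells and from 32.3% to 52.3% in PTPN21 cells. A fall of a gene is therefore given with its size relative to the median of all genes where that matters.

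Among the 36 members, 2 rose and 13 fell with VCR in NC cells, which is 15 of 36 against a background of 36.2%. Their median difference was -0.33, 0.03 above the median of all genes, close to that of the transcriptome. In PTPN21 cells 1 rose and 8 fell, against a background of 28.5%, and the median of -0.15 was 0.02 above that of all genes. With median ratio scaling the counts were 3 higher and 4 lower in NC cells and 2 higher and 6 lower in PTPN21 cells, and without NC+DMSO replicate 3 the first count was 1 higher and 11 lower. What stood out was single enzymes, often 1 isoform of a step, which differed far more than the median.

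**Figure D2:**
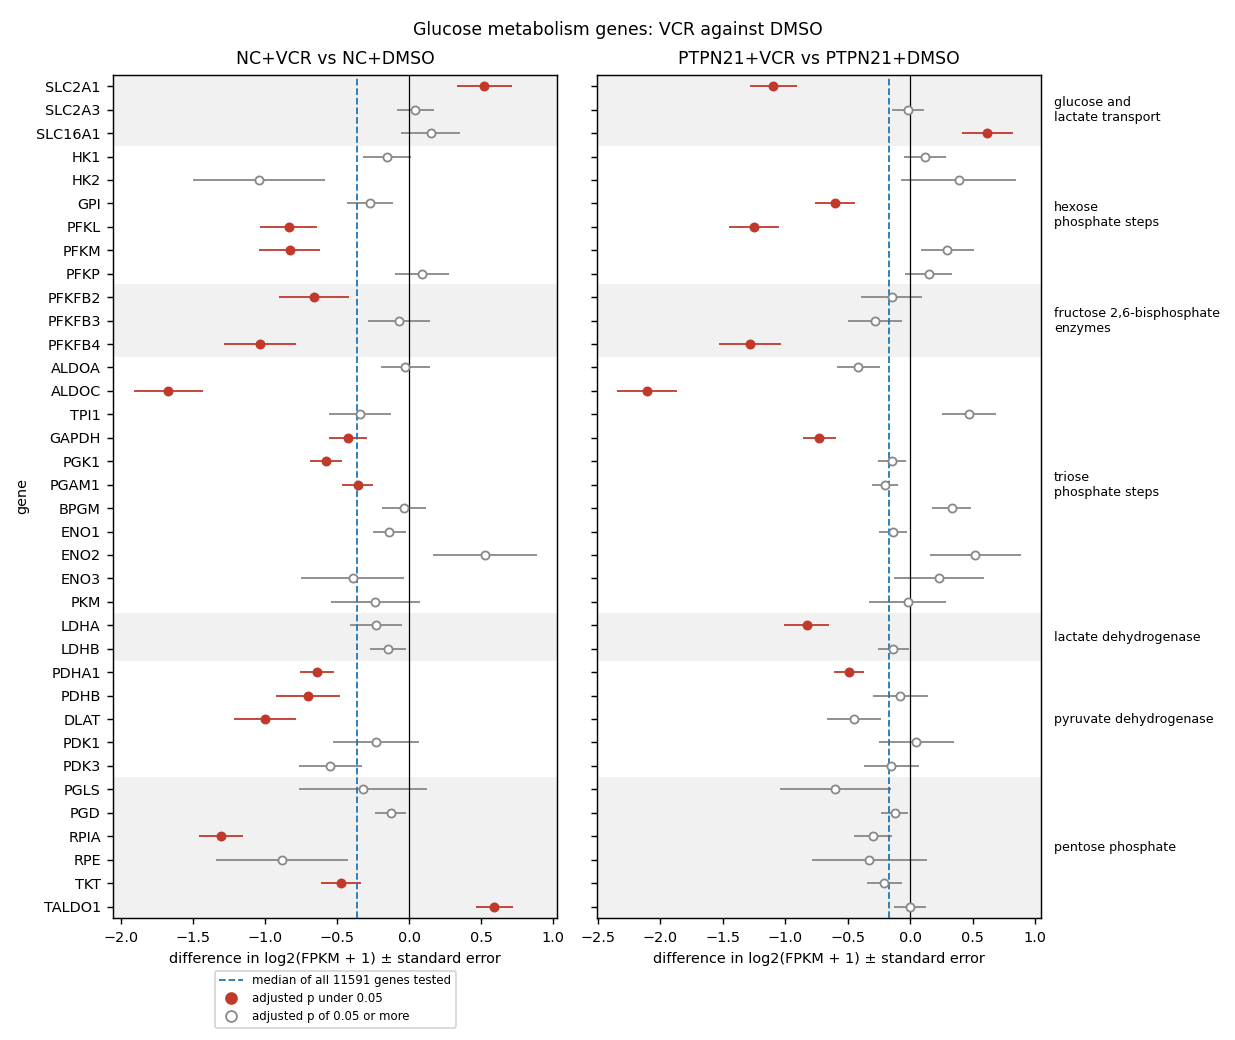
Difference in log2(FPKM + 1) with standard error for each of the 36 genes, VCR against DMSO, in NC cells (left) and PTPN21 cells (right), with filled red symbols for adjusted p under 0.05 and a dashed line at the median of all genes tested. ALDOC lies farthest to the left in both panels, and SLC2A1 lies to the right of 0 in NC cells (0.52) and to the left in PTPN21 cells (-1.10).

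Among the transporters was the 1 member whose response to VCR differed between NC and PTPN21 cells. SLC2A1 encodes GLUT1, the widely expressed basal glucose transporter (ENSG00000117394, chromosome 1, 42925375 to 42959176, minus strand, GRCh38 in GENCODE release 29). Its FPKM was 6.46, 6.53 and 6.51 in NC+DMSO, 9.76, 9.99 and 9.58 in NC+VCR, 5.94, 9.54 and 8.38 in PTPN21+DMSO, and 3.82, 2.69 and 2.95 in PTPN21+VCR. All 3 NC+VCR libraries were above all other libraries, and all 3 PTPN21+VCR libraries were below all others. In PTPN21 cells it fell with VCR by 1.10 on the log2 scale (standard error 0.19, limma adjusted p = 0.0014), a call kept in all 21 alternatives. In NC cells it rose by 0.52 (standard error 0.19, limma adjusted p = 0.0496), a call at the threshold that was lost on leaving out any 1 of 11 libraries, all but PTPN21+DMSO replicate 1 (adjusted p = 0.0514 to 0.103). TPM scaling (adjusted p = 0.111), a pseudocount of 0.1, no filter, a replicate block and the 2 groups fitted alone each ended this call as well. Median ratio scaling (0.00438) and quantile normalization (0.00354) kept it. Between the VCR groups SLC2A1 was lower in PTPN21 cells by 1.38 (standard error 0.19, limma adjusted p = 0.00596), which is 0.383 times the NC+VCR value of FPKM + 1. That difference held in all 21 alternatives, with adjusted p from 0.00409 to 0.0416. Without VCR the difference was 0.23 with an adjusted p of 0.476.

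The difference between the responses of NC and PTPN21 cells to VCR was tested as the interaction of PTPN21 and VCR. SLC2A1 was the 1 member of 36 that passed, at -1.62 (standard error 0.27, limma adjusted p = 0.0484), where 0.129% of all genes passed (0.0259% higher and 0.104% lower). The estimate stayed between -1.88 and -1.49 under the alternatives, and the call was kept in 5 of 20. It was lost without any 1 of the same 11 libraries (adjusted p = 0.0534 to 0.14). TPM scaling (adjusted p = 0.0612), no filter, a minimum mean of 5 FPKM and a replicate block each ended the call as well. Median ratio scaling (0.0167) and quantile normalization (0.0169) kept it.

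SLC2A3 (GLUT3), a transporter with high affinity for glucose that is prominent in neurons and white blood cells, was 41.4, 43.1 and 42.6 FPKM in NC+DMSO, 49.9, 45.9 and 36.4 in NC+VCR, 32.6, 34.2 and 36.1 in PTPN21+DMSO, and 34.7, 35.1 and 31.8 in PTPN21+VCR. It was higher than SLC2A1 per length in every library and passed in none of the comparisons of the FPKM as deposited (adjusted p = 0.174 in both comparisons of PTPN21 with NC). With median ratio scaling SLC2A3, like SLC2A1, was called higher with VCR in NC cells. SLC2A1 took 13.3% ± 0.18 of the summed FPKM of the 2 genes in NC+DMSO (SD, n = 3), 18.4% ± 2.29 in NC+VCR, 18.7% ± 3.21 in PTPN21+DMSO and 8.52% ± 1.4 in PTPN21+VCR. Scaling each library by 1 factor, as in median ratio or TPM scaling, leaves this share unchanged, and it was not computed under quantile normalization. The highest PTPN21+VCR library was at 9.93% and the lowest of all others at 13.1%. SLC16A1 encodes MCT1, which moves lactate and pyruvate across the membrane together with protons. Its FPKM was 9.39, 9.65 and 7.78 in PTPN21+DMSO and 15.9, 15.6 and 11.5 in PTPN21+VCR, without overlap, and 13.4, 9.19 and 15.5 in NC+DMSO and 12.5, 16.1 and 13.3 in NC+VCR, which overlap. It rose with VCR in PTPN21 cells by 0.62 (standard error 0.21, limma adjusted p = 0.0414), and the call was lost without NC+DMSO replicate 1, any PTPN21+DMSO library, or PTPN21+VCR replicate 1 or 2 (adjusted p = 0.0526 to 0.136). TPM scaling, no filter and a replicate block each ended the SLC16A1 call as well.

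The bases before 1 RefSeq start site of SLC2A1 are shown because this gene carried the contrast between NC and PTPN21 cells. GAPDH, PDHA1, PFKL, ALDOC and PFKFB4 fell with VCR in both kinds of cells, and of these only the bases of ALDOC and PFKFB4 are shown. They come from RefSeq (GRCh38.p14), are the 250 bases before the RefSeq start, run 5′ to 3′ on the minus strand, and lie at chr1:42958869-42959118, chr17:28576896-28577145 and chr3:48556804-48557053. These RefSeq starts are not the outer ends of the GENCODE genes given here, which cover all annotated transcripts, so each window lies within the GENCODE gene, and other start sites were not examined. Capitals mark the core letters of the hypoxia response element, ACGTG or GCGTG, on either strand.
SLC2A1: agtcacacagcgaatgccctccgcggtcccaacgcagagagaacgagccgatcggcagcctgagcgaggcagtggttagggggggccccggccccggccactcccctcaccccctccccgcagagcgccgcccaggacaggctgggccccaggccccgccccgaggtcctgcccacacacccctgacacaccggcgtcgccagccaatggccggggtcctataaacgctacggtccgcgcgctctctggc
ALDOC: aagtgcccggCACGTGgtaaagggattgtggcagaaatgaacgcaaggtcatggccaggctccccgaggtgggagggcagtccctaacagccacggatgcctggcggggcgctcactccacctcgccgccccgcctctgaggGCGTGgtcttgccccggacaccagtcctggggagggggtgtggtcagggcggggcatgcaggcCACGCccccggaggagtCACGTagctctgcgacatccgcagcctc
PFKFB4: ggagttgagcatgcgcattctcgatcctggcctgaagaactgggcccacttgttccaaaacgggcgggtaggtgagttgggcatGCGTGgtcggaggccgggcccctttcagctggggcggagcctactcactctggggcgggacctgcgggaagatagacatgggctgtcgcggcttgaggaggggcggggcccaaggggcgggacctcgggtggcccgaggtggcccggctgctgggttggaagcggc
The SLC2A1 window held no core, the PFKFB4 window held 1 at 166 bases before the RefSeq start, and the ALDOC window held 5. The most distant pair of the ALDOC matches, 240 and 239 bases before the start, overlap in 1 E-box (CACGTG), and the others begin 108, 45 and 28 bases before the start. A RefSeq window was found for 35 of 38 members (SLC2A3, SLC16A1 and PFKFB2 had none), with 64 windows in all. The core was in 54.7% of these 64 windows and in 43.2% of all 35116 promoter windows, and the E-box in 10.9% and 6.34%. A match is a description of letters and not of a bound site.

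At the hexose steps, PFKL fell with VCR in both kinds of cells, while PFKP, which codes for another form of the same committing enzyme, phosphofructokinase, did not pass. PFKL, the liver type subunit (chromosome 21, 44300051 to 44327376, plus strand), was 12.1, 15.1 and 16.4 FPKM in NC+DMSO and 7.65, 6.01 and 9.66 in NC+VCR. In PTPN21 cells it was 13, 15 and 11.1 with DMSO and 4.97, 4.27 and 5.44 with VCR. Neither pair of groups overlapped. PFKL fell with VCR by 0.84 in NC cells (standard error 0.20, limma adjusted p = 0.007) and by 1.25 in PTPN21 cells (standard error 0.20, limma adjusted p = 0.000773). In PTPN21 cells the call held in all 21 alternatives, and in NC cells it was lost with median ratio scaling and quantile normalization.

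PFKM, the muscle type subunit, was 19, 14.5 and 19 FPKM in NC+DMSO, 11.6, 7.03 and 9.98 in NC+VCR, 8.61, 11.2 and 9.49 in PTPN21+DMSO, and 14.7, 12.5 and 9.73 in PTPN21+VCR. NC+DMSO was above PTPN21+DMSO and NC+VCR with no overlap. It fell with VCR in NC cells by 0.83 (standard error 0.21, limma adjusted p = 0.01), and its difference with VCR in PTPN21 cells was 0.30 (adjusted p = 0.324). The fall in NC cells was lost with median ratio scaling and quantile normalization. PFKP, the platelet type, was 17.7, 21.5 and 19.4 FPKM in NC+DMSO, 27.8, 15.6 and 20.7 in NC+VCR, 17.9, 19.3 and 16.5 in PTPN21+DMSO, and 20.2, 21.2 and 18.3 in PTPN21+VCR. These groups overlapped, and no comparison of PFKP passed. As a share of the summed FPKM of the 3 genes, PFKL went from 28.1% ± 2.83 in NC+DMSO to 20.4% ± 3.88 in NC+VCR and from 32% ± 1.7 in PTPN21+DMSO to 13.3% ± 2.62 in PTPN21+VCR (SD, n = 3), while PFKP was 35.4% to 45.3% of the sum with DMSO and 50.7% to 59.1% with VCR.

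Of the other hexose enzymes, GPI, which turns glucose 6-phosphate into fructose 6-phosphate, was 44.3, 50.5 and 46.7 FPKM in PTPN21+DMSO and 29.4, 28.3 and 34.8 in PTPN21+VCR. It fell there by 0.60 (standard error 0.16, limma adjusted p = 0.014), and the call was lost without replicate 2 of either group (adjusted p = 0.052 and 0.0553). Median ratio scaling and quantile normalization ended the GPI call as well. HK1, the ubiquitous hexokinase, was 136, 147 and 181 FPKM in NC+DMSO, 152, 118 and 146 in NC+VCR, 77, 117 and 89.3 in PTPN21+DMSO, and 100.5, 109 and 94 in PTPN21+VCR. All PTPN21 libraries lay below all NC libraries, and VCR made no difference that passed. HK2, the hexokinase linked to high glycolysis in tumours, was 2.91, 2.12 and 14.4 FPKM in NC+DMSO, 2.34, 1.49 and 1.58 in NC+VCR, 0.828, 1.27 and 0.974 in PTPN21+DMSO, and 1.7, 1.98 and 1.28 in PTPN21+VCR. The value of 14.4 was in NC+DMSO replicate 3 alone, and HK2 passed in no comparison. HK1 held between 92.6% and 98.9% of the summed FPKM of both hexokinases.

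The PFKFB genes set the level of fructose 2,6-bisphosphate, the activator of phosphofructokinase. PFKFB4 was 4.03, 2.43 and 4.65 FPKM in NC+DMSO and 0.984, 1.76 and 1.09 in NC+VCR, and 5.38, 5.99 and 3.51 in PTPN21+DMSO and 1.43, 1.41 and 1.39 in PTPN21+VCR. All 6 VCR libraries lay below all 6 DMSO libraries. It fell by 1.03 in NC cells (standard error 0.25, limma adjusted p = 0.00775) and by 1.28 in PTPN21 cells (standard error 0.25, limma adjusted p = 0.00284). The first call was lost with quantile normalization (adjusted p = 0.0905), the second under no alternative. PFKFB2 was 3.73, 2.52 and 4.02 FPKM in NC+DMSO, 1.98, 2.01 and 1.37 in NC+VCR, 1.57, 2.43 and 2.48 in PTPN21+DMSO, and 2.52, 1.82 and 1.27 in PTPN21+VCR. Its fall of 0.66 with VCR in NC cells was at the threshold (standard error 0.24, limma adjusted p = 0.0497) and was lost on leaving out any library but NC+DMSO replicate 2 or PTPN21+VCR replicate 3 (adjusted p = 0.051 to 0.14). The PFKFB2 call was kept in 4 of 20 alternatives, with estimates from -0.896 to -0.233. Median ratio scaling, quantile normalization, a pseudocount of 0.1, no filter, a replicate block and the 2 groups fitted alone each ended it. PFKFB3, the inducible isoform, was 2.15, 2.37 and 3.53 FPKM in NC+DMSO, 2.27, 2.03 and 3.18 in NC+VCR, 2.59, 2.77 and 2.0 in PTPN21+DMSO, and 1.86, 1.74 and 1.89 in PTPN21+VCR, and passed in no comparison.

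Among the triose phosphate enzymes the largest fall was in ALDOC, the aldolase known from brain (chromosome 17, 28573115 to 28577264, minus strand). Its FPKM was 18.2, 28.6 and 23.7 in NC+DMSO, 6.58, 4.29 and 9.84 in NC+VCR, 26.8, 30.5 and 32 in PTPN21+DMSO, and 5.74, 6.31 and 6.38 in PTPN21+VCR. Every VCR library was below 10 FPKM and every DMSO library above 18. It fell by 1.67 in NC cells (standard error 0.24, limma adjusted p = 0.000348) and by 2.10 in PTPN21 cells (standard error 0.24, limma adjusted p = 8.26e-05), the largest falls of any member in both, and both held in all 21 alternatives. ALDOA, the main aldolase, had 174 to 261 FPKM with DMSO and 160.1 to 254 with VCR and passed in neither. ALDOC thus went from 9.89% ± 2.05 of the summed aldolase FPKM in NC+DMSO to 3.1% ± 0.919 in NC+VCR, and from 10.6% ± 0.434 to 3.18% ± 0.105 in PTPN21 cells (SD, n = 3).

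GAPDH, the dehydrogenase that yields NADH and the gene often used to normalise RT-qPCR, was itself not constant. Its FPKM was 904, 1027 and 725 in NC+DMSO, 648, 579.9 and 739 in NC+VCR, 1412, 1200.2 and 1226 in PTPN21+DMSO, and 748, 773 and 789 in PTPN21+VCR. The PTPN21+DMSO libraries were the 3 highest. Between PTPN21+VCR and NC+VCR the groups did not overlap, but the difference of 0.24 did not pass (limma adjusted p = 0.39). It was 0.11 to 0.23 under the 3 other scalings, none past the threshold. In PTPN21 cells GAPDH fell with VCR by 0.73 (standard error 0.13, limma adjusted p = 0.00184), and its difference was -0.82 to -0.53 under the 3 other scalings, all past the threshold. In NC cells it fell by 0.43 (standard error 0.13, limma adjusted p = 0.0259), only 0.06 below the median of all genes, with -0.77 to -0.03 under the other scalings, and the call was lost with median ratio scaling (adjusted p = 0.907) or without NC+DMSO replicate 1 or 2 or NC+VCR replicate 1 or 2 (adjusted p = 0.0584 to 0.095). PGK1, which makes ATP in the next step, was 83.1, 79.5 and 75.2 FPKM in NC+DMSO and 48.1, 55.7 and 54.8 in NC+VCR and fell by 0.58 (standard error 0.11, limma adjusted p = 0.00215), a call lost with median ratio scaling (-0.19). PGAM1, the phosphoglycerate mutase, fell in NC cells by 0.36, the same as the median of all genes, with an adjusted p of 0.0229 in limma. Its call was lost without NC+DMSO replicate 1 or 2 or NC+VCR replicate 2 or 3 (0.0503 to 0.0785), and with median ratio scaling the sign turned (0.03).

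The enolases, which form phosphoenolpyruvate, did not pass in any comparison of the FPKM as deposited. ENO1 was 835, 953 and 725 FPKM in NC+DMSO, 711, 707 and 862 in NC+VCR, 1013, 1127 and 1078 in PTPN21+DMSO, and 982, 968 and 973 in PTPN21+VCR. Each PTPN21 library was above each NC library, with a difference of 0.36 both with DMSO (adjusted p = 0.0746) and with VCR (adjusted p = 0.122). The difference with DMSO passed under median ratio scaling (0.549, limma adjusted p = 0.0466) and was -0.013 under quantile normalization. Under quantile normalization ENO1 also fell with VCR in NC cells (-0.435, limma adjusted p = 0.0125). ENO2, the neuronal form, was 9.45, 20.4 and 13.1 FPKM in NC+DMSO, 26.4, 12 and 25.7 in NC+VCR, 18, 13.8 and 7.22 in PTPN21+DMSO, and 20.3, 18 and 15.9 in PTPN21+VCR. ENO3, the muscle form, was 11.5, 11 and 37.8 FPKM in NC+DMSO, 10.2, 12.9 and 15.5 in NC+VCR, 13.2, 12.4 and 10.1 in PTPN21+DMSO, and 14, 13.9 and 14.2 in PTPN21+VCR. As for HK2, the single high value was NC+DMSO replicate 3. ENO1 held 93.4% to 98.4% of the summed enolase FPKM. TPI1, BPGM and PKM, at means of 236, 15.1 and 92.4 FPKM, passed in no comparison either. With median ratio scaling or quantile normalization, BPGM was called higher with VCR in PTPN21 cells.

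**Figure D3:**
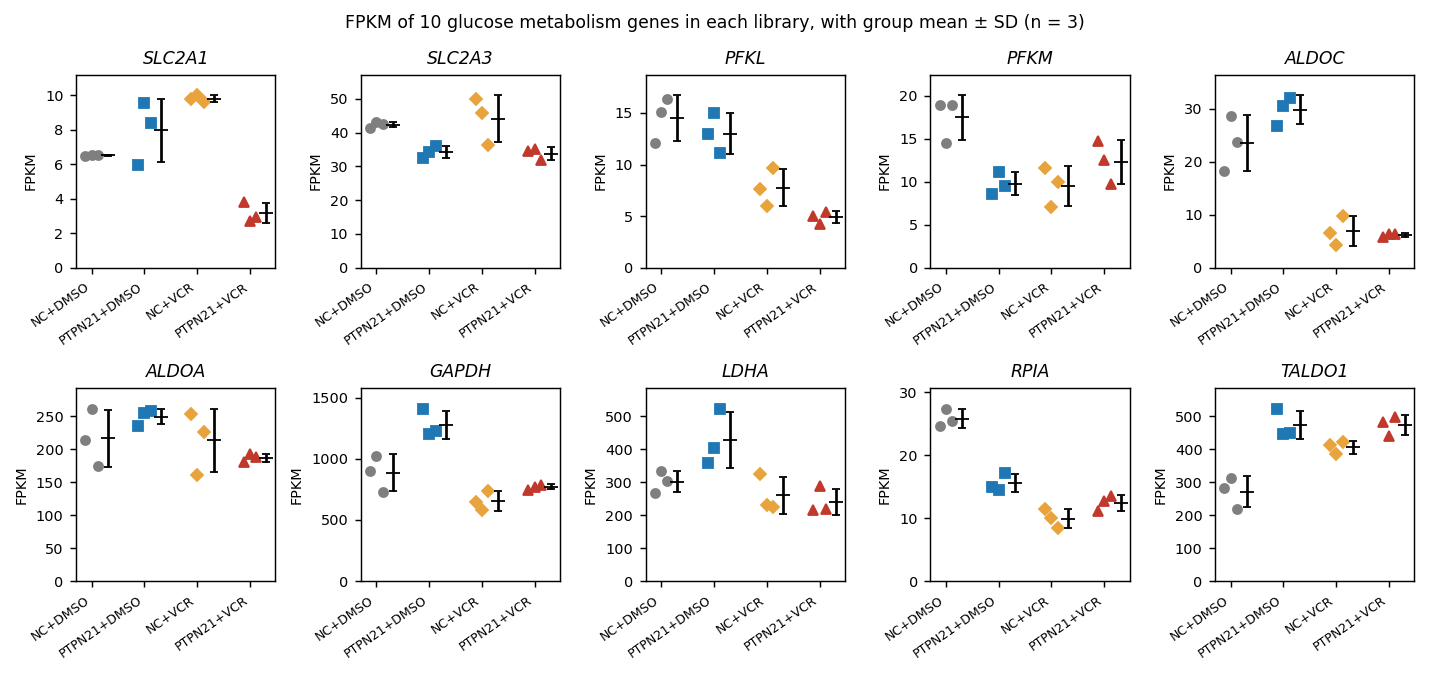
FPKM of 10 genes in each library (3 symbols per group, linear axes from 0) with the group mean and SD (n = 3) beside them. SLC2A1 is lowest in the 3 PTPN21+VCR libraries (2.69 to 3.82), ALDOC and PFKL are lower in both VCR groups, and RPIA and TALDO1 are set apart in NC+DMSO.

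Pyruvate has its own fork. LDHA, the lactate dehydrogenase subunit suited to making lactate, was 268, 332 and 303 FPKM in NC+DMSO, 324, 231 and 224 in NC+VCR, 357, 404 and 523 in PTPN21+DMSO, and 214, 287 and 218 in PTPN21+VCR. With VCR it fell in PTPN21 cells by 0.83 (standard error 0.18, limma adjusted p = 0.00522, kept in all 21 alternatives), and its difference in NC cells was -0.23 (adjusted p = 0.341). The 2 responses were not shown to differ (interaction -0.60, adjusted p = 0.327). LDHB, the subunit suited to using lactate, was 915, 964 and 828 FPKM in NC+DMSO, 839.8, 736 and 873 in NC+VCR, 901, 1184 and 1248 in PTPN21+DMSO, and 992, 1016 and 999 in PTPN21+VCR, and passed in no comparison of the FPKM as deposited. With quantile normalization LDHB was called lower with VCR in NC cells (-0.446, limma adjusted p = 0.023). LDHB was above LDHA in every library, and LDHA took 27.8% ± 2.1 of the sum in PTPN21+DMSO and 19.2% ± 2.41 in PTPN21+VCR (SD, n = 3), with 25% ± 2.15 and 24.0% ± 3.71 in the NC groups.

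**Figure D4:**
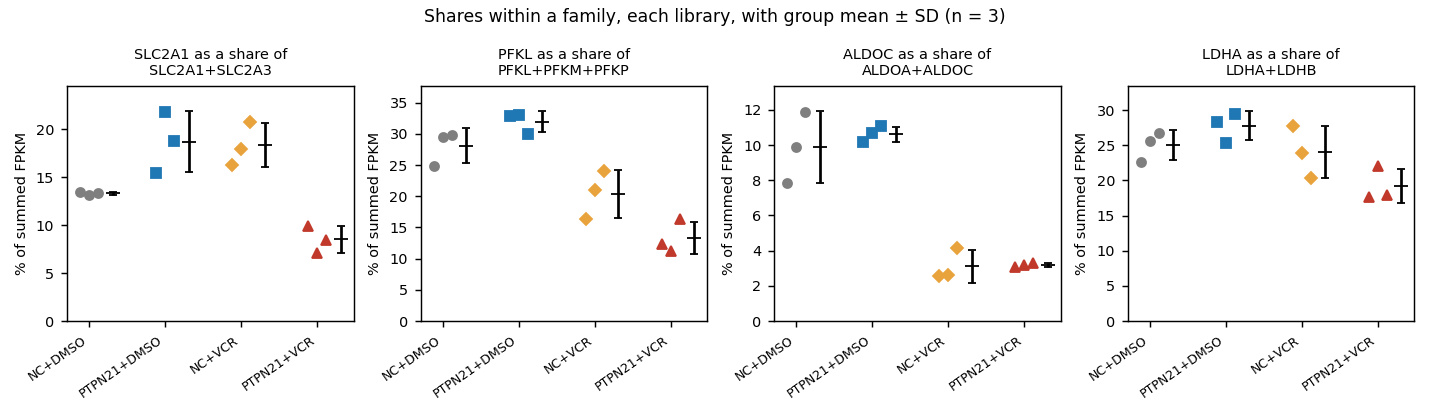
Share of 1 family member in the summed FPKM of its family in each library, with group mean and SD (n = 3), for SLC2A1, PFKL, ALDOC and LDHA. The PTPN21+VCR libraries have the lowest SLC2A1 shares (7.12% to 9.93%), and the ALDOC share is 7.84% or more in every DMSO library and 4.16% or less in every VCR library.

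The pyruvate dehydrogenase complex feeds acetyl-CoA to the citric acid cycle. Of 5 genes of the complex and its kinases, 3 fell with VCR in NC cells, where 28.3% of all genes fell. In PTPN21 cells 1 of 5 fell, where 19.3% of all genes did. DLD and PDHX, also subunits of the complex, were counted in the list of pyruvate import and the citric acid cycle. PDHA1, the catalytic alpha subunit, was 267, 235 and 214 FPKM in NC+DMSO and 165, 140.5 and 152 in NC+VCR, and 215, 219 and 225 in PTPN21+DMSO and 165, 136 and 169.8 in PTPN21+VCR. It fell by 0.64 in NC cells (standard error 0.12, limma adjusted p = 0.00167) and by 0.49 in PTPN21 cells (standard error 0.12, limma adjusted p = 0.00904), and the first call was lost with median ratio scaling, the second with that and with quantile normalization. DLAT, the acetyltransferase core, was 15.8, 11.8 and 18.2 FPKM in NC+DMSO and 6.45, 6.86 and 7.82 in NC+VCR, a fall of 1.00 (standard error 0.22, limma adjusted p = 0.00425) kept in all 21 alternatives. PDHB fell by 0.70 in NC cells (adjusted p = 0.0273), with 1 NC+VCR library at 31.5 FPKM within the NC+DMSO range, and the call was lost without NC+DMSO replicate 1 or 3 or NC+VCR replicate 1 or 3 (0.0637 to 0.0968). The PDHB call was also lost with median ratio scaling, quantile normalization, no filter and the 2 groups fitted alone. With median ratio scaling, DLAT alone of these genes passed in NC cells. Relative to the median of all genes, PDHA1 and PDHB differed there by -0.28 and -0.34. In PTPN21 cells the differences of DLAT and PDHB with VCR were -0.45 (adjusted p = 0.141) and -0.08 (adjusted p = 0.826). Neither gene was shown to respond differently in NC and PTPN21 cells (interaction 0.55 and 0.63, limma adjusted p = 0.433 and 0.391). The kinases PDK1 and PDK3, which switch the complex off, passed in no comparison, except that PDK3 was called lower with VCR in NC cells under TPM scaling.

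In the pentose phosphate pathway, RPIA and TALDO1 moved in opposite directions. RPIA forms ribose 5-phosphate, the sugar of nucleotides (chromosome 2, 88691644 to 88750935, plus strand). Its FPKM was 24.6, 27.4 and 25.4 in NC+DMSO, 11.4, 9.93 and 8.38 in NC+VCR, 15, 14.4 and 17.1 in PTPN21+DMSO, and 11.1, 12.7 and 13.5 in PTPN21+VCR. NC+DMSO was highest without overlap. With VCR it fell by 1.31 in NC cells (standard error 0.15, limma adjusted p = 8.32e-05, kept in all 21 alternatives), and its difference in PTPN21 cells was -0.30 (adjusted p = 0.161). The interaction was 1.006 with an adjusted p of 0.0942, so the 2 responses were not shown to differ.

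TALDO1, transaldolase, which links pentose phosphates back to glycolysis, was 282, 313 and 219.7 FPKM in NC+DMSO, 412, 384 and 421 in NC+VCR, 524, 447 and 449 in PTPN21+DMSO, and 482, 439 and 498 in PTPN21+VCR. Again NC+DMSO was set apart, here as the lowest. It rose with VCR in NC cells by 0.59 (standard error 0.13, limma adjusted p = 0.00411, kept in all 21 alternatives), 0.95 above the median of all genes. In PTPN21 cells the difference was 0.00, and the 2 responses were not shown to differ (interaction -0.59, limma adjusted p = 0.209). TKT, transketolase, fell in NC cells by 0.47 (standard error 0.14, limma adjusted p = 0.0204), which is 0.11 below the median of all genes and became -0.09 with median ratio scaling, and the call was lost without NC+DMSO replicate 3 or NC+VCR replicate 2 (0.074 and 0.0601), and with median ratio scaling and quantile normalization. PGD, which makes NADPH, was 167 to 222 FPKM in all 12 libraries and, with PGLS and RPE, passed in no comparison.

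Fewer genes passed for the construct than for VCR. With DMSO, PTPN21 cells differed from NC cells in 5 of 36 members, 2 higher and 3 lower, where 6.34% of all genes passed (2.65% higher and 3.69% lower). TALDO1 rose by 0.81 (standard error 0.13, limma adjusted p = 0.00835), and no left-out library ended that call. GAPDH rose by 0.54 (standard error 0.13, limma adjusted p = 0.0371), with 0.15 to 0.73 under the 3 other scalings and no call under quantile normalization (adjusted p = 0.379). HK1 fell by 0.72, RPIA by 0.70 and PFKM by 0.78 (limma adjusted p = 0.0311, 0.0256 and 0.0491), each with no overlap between the groups and none past the threshold with median ratio scaling. A replicate block ended the calls of GAPDH, HK1, RPIA and PFKM, and with the 2 groups fitted alone no member passed. No filter and no trend each ended those of GAPDH, HK1 and PFKM. Quantile normalization and a pseudocount of 0.1 each ended that of PFKM. Of 21 alternatives, the call was kept in 8 for GAPDH, 12 for HK1, 13 for RPIA and 5 for PFKM.

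GAPDH, HK1, RPIA and PFKM each lost the call on leaving out single libraries. GAPDH was lost on leaving out any 1 of 8 libraries, namely NC+DMSO replicates 1 and 3 and all of the PTPN21 libraries (adjusted p = 0.0513 to 0.153). HK1 was lost without NC+DMSO replicate 1 or 3 or PTPN21+DMSO replicate 1 or 3 (0.0575 to 0.132), and RPIA without any of these or PTPN21+DMSO replicate 2 (0.0583 to 0.105). PFKM was lost without any of the libraries that ended the GAPDH call or NC+VCR replicate 3 (0.0536 to 0.183). The count of members past the threshold was 1 without NC+DMSO replicate 1, NC+DMSO replicate 3, PTPN21+DMSO replicate 1 or PTPN21+DMSO replicate 3, it was 2 without PTPN21+DMSO replicate 2, 3 without any 1 PTPN21+VCR library, and 8 without NC+DMSO replicate 2.

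With VCR, SLC2A1 was the 1 member of 36 that differed between PTPN21+VCR and NC+VCR, where 1.82% of all genes passed (1.00% higher and 0.820% lower). The members' median difference was 0.03 in this comparison and -0.13 with DMSO, against 0.03 and -0.14 over all genes. PTPN21+DMSO and PTPN21+VCR were each compared with their own NC group, but each of the 4 groups serves in more than one comparison, so the comparisons are not independent of each other.

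**Figure D5:**
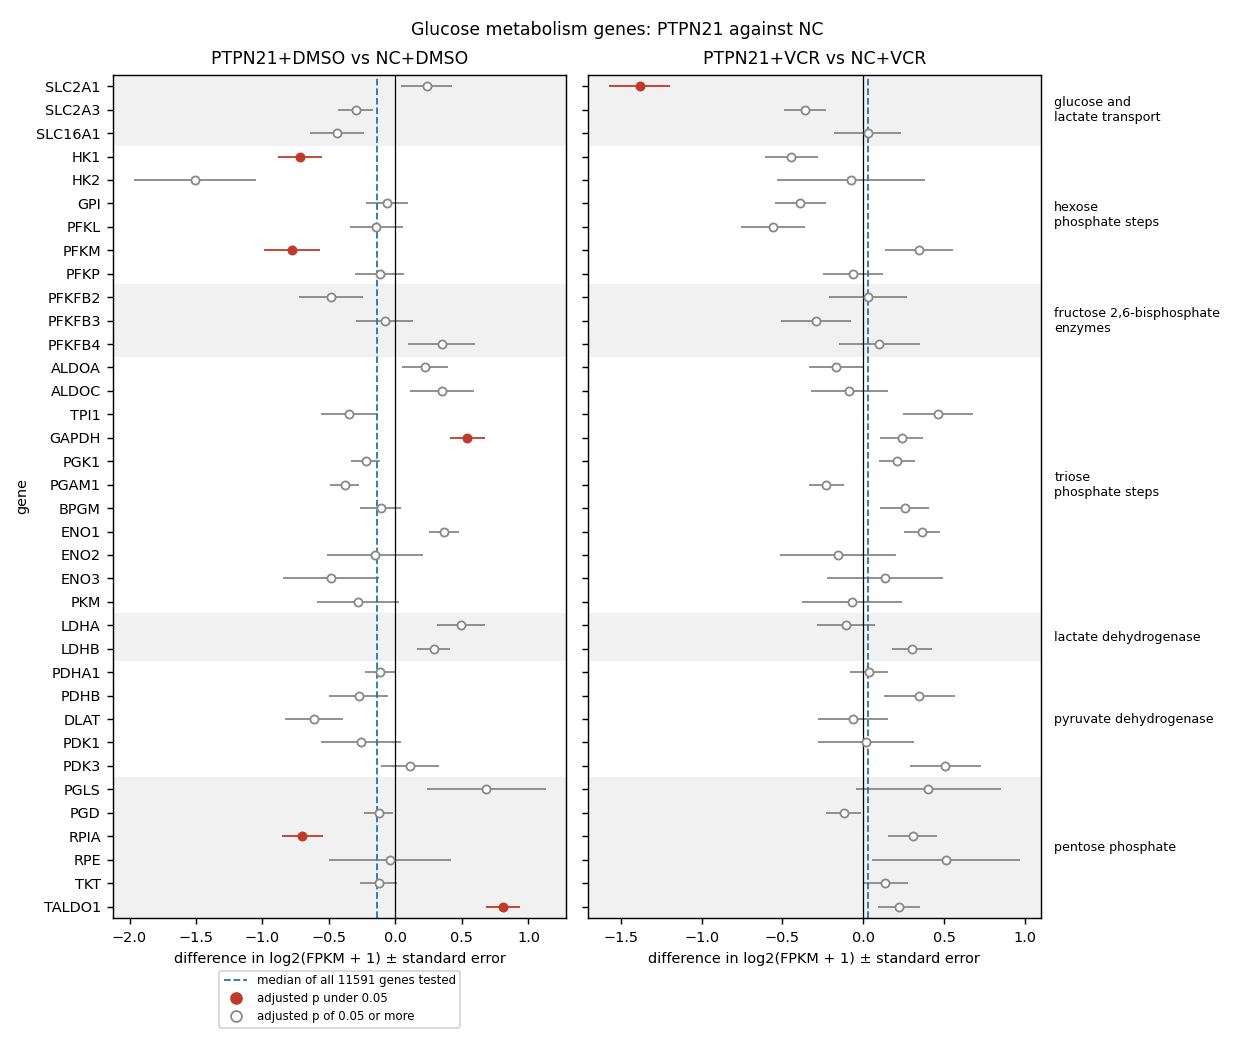
Difference in log2(FPKM + 1) with standard error for each of the 36 genes, PTPN21 against NC cells, with DMSO (left) and with VCR (right), with filled red symbols for adjusted p under 0.05 and a dashed line at the median of all genes tested. SLC2A1 (-1.38) is the 1 filled symbol with VCR, and HK1, PFKM, RPIA, GAPDH and TALDO1 are filled with DMSO.

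Neighbouring pathways were read from lists of genes outside the 38. Their calls are from the FPKM as deposited and were not checked under the alternatives. With median ratio scaling, 1717 of all genes rose and 1361 fell with VCR in NC cells, against 917 and 3275 as deposited. Over all genes tested, 7.91% rose and 28.3% fell with VCR in NC cells, and 9.22% rose and 19.3% fell in PTPN21 cells, and the counts of each list are to be read against these shares. Of 16 tested genes of pyruvate import and the citric acid cycle, 0 rose and 9 fell in NC cells (median -0.68 against -0.36 over all genes), and 0 rose and 5 fell in PTPN21 cells (median -0.23 against -0.17). DLST and OGDH, parts of 2-oxoglutarate dehydrogenase, fell in NC cells by 1.48 and 1.24 (limma adjusted p = 0.0032 and 0.00324), and MPC2, a subunit of the mitochondrial pyruvate carrier, fell there by 0.95 (limma adjusted p = 0.0033). MDH2, mitochondrial malate dehydrogenase, was the 1 gene of this list that differed between the VCR groups, higher in PTPN21+VCR (119 ± 13.3 FPKM) than in NC+VCR (65.1 ± 9.1; SD, n = 3) by 0.86 (limma adjusted p = 0.0101).

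Of 20 tested genes that branch from glycolysis, 2 rose and 3 fell with VCR in NC cells and 3 rose and 4 fell in PTPN21 cells, and none passed between PTPN21 and NC cells. The fallen genes are 15% and 20% of the list, beside 28.3% and 19.3% of all genes. PSAT1, of serine synthesis, fell by 1.10 and 0.67 (limma adjusted p = 7.25e-05 and 0.00226), and PYGL, a glycogen phosphorylase, rose by 0.53 and 1.17 (limma adjusted p = 0.0362 and 0.000547). Of 16 tested hypoxia-responsive genes outside glycolysis, 2 rose and 7 fell in NC cells and 2 rose and 4 fell in PTPN21 cells. They did not move as a block, since ADM and NDRG1 rose in NC cells by 1.81 and 1.46 while DDIT4 and VEGFA fell by 0.97 and 0.95 (limma adjusted p = 0.000321, 0.00507, 9.09e-05 and 0.00145). In PTPN21+DMSO against NC+DMSO, 0 rose and 3 fell, where 2.65% of all genes rose and 3.69% fell, among them KDM3A by 0.96 (limma adjusted p = 0.0308), and DDIT4 was the 1 that passed between the VCR groups, lower in PTPN21+VCR by 0.52 (limma adjusted p = 0.0422).

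A further list held arrestins and transcription regulators, and 7 of its genes were tested. Among them TXNIP, an arrestin that promotes the uptake of GLUT1 from the cell surface, rose with VCR in both kinds of cells. Its mean FPKM was 3.71 ± 0.857 in NC+DMSO, 11.2 ± 0.451 in NC+VCR, 2.38 ± 0.946 in PTPN21+DMSO and 11.9 ± 1.87 in PTPN21+VCR (SD, n = 3), a rise of 1.39 in NC cells and 1.96 in PTPN21 cells (limma adjusted p = 0.000754 and 8.68e-05). HIF1A, which codes for the oxygen-regulated subunit of HIF-1, rose in PTPN21 cells with VCR by 0.86 (limma adjusted p = 0.00715). No gene of this list passed between PTPN21 and NC cells.

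Many glycolytic genes have processed pseudogenes that can share reads with them. Pseudogene rows were found for 16 members, 62 of them for GAPDH, and their summed FPKM stayed at or below 2.64% of the parent in every library except for RPE, where it reached 16.2%. SLC2A1 has no such row, and for SLC2A3 the sum was at most 0.25 FPKM.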

How the data were processed

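RNA from 12 libraries, 3 in each of 4 groups named by the labels, was sequenced and processed by a company. The authors deposited 1 table of FPKM per gene, that is, fragments scaled to gene length and to the fragments of the library. The submitters' processing notes name fastp, Bowtie2 and the mouse build mm10, although the identifiers are human Ensembl genes. The counting program and annotation are not given in the sources used here. Positions are from GENCODE release 29 (GRCh38), which holds 96.3% of the rows. The members, the other lists and the rule for named genes (members past the threshold, plus the isoforms of the same step) were chosen with earlier results of these data known.

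The files hold no counts. Depth was estimated from the steps in low FPKM of 8706 single-exon genes, searched between 10000000 and 26000000 fragments, a range narrowed after a wider search settled on finer steps in some libraries, so that these depths may be 2 times higher. The method was tested on simulated data. Low depth weighs most on genes with low FPKM.

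Values of log2(FPKM + 1) were fitted with limma 3.58.1 (R 4.3.3) with an intensity trend, in 1 model of 4 group means over genes with a mean of at least 1 FPKM, with Benjamini-Hochberg adjustment over all 11591 genes, and checked on simulated data. Alternatives were median ratio scaling, TPM scaling, quantile normalization, no filter, a pseudocount of 0.1, a minimum mean of 5 FPKM, no trend, the 2 groups alone, a replicate block and leaving out each library. Same-numbered libraries did not deviate together (r of -0.145 to 0.0583 over 18 pairs), so the numbers were not taken as pairs. Shares within a family are of summed FPKM and carry no test. Protein sequences were not used here. 1 result of a gene in the list of pyruvate entry and the citric acid cycle is not reported here, and the counts of that list include it. Figures were drawn with matplotlib.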

Additional observations from a re-analysis of the deposited data

Results flagged for a closer look

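1 result met the rule for a closer look, because the response to VCR differed between NC and PTPN21 cells by a test of the difference itself. It was SLC2A1, with an interaction of PTPN21 and VCR of -1.617 on the log2 scale (standard error 0.27, limma adjusted p = 0.0484), which joins a rise of 0.52 in NC cells and a fall of 1.10 in PTPN21 cells. The interaction call was kept in 5 of 20 alternatives and the rise in NC cells in 5 of 21, while the fall in PTPN21 cells was kept in all 21. Groups of 3 libraries were not searched for outlying samples.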

How the results depend on the processing

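Of 275 values of members past the threshold under the settings that keep all libraries, 210 kept their direction and call, 64 kept the direction without the call and 1 reversed, and of 372 values with 1 library left out, 292 kept both, 80 lost the call and 0 reversed. The reversal was PGAM1 with VCR in NC cells, 0.033 with median ratio scaling against -0.36. The number of members past the threshold with VCR in NC cells (15) was 7 with median ratio scaling and 9 with the 2 groups fitted alone, and 10 to 14 with 1 library left out. In PTPN21 cells (9) it was 7 to 10 with 1 library left out. Between PTPN21+DMSO and NC+DMSO (5) the number was 3 with median ratio scaling, 0 with the 2 groups fitted alone, 2 without the trend, 2 with no filter and 1 to 8 with 1 library left out. For the interaction (1) it was 0 with TPM scaling, no filter or a mean FPKM of at least 5, and 0 to 1 with 1 library left out. It was 1 in every setting for PTPN21+VCR against NC+VCR. The interaction could not be fitted with 2 groups alone, and PFKFB2 and PFKFB4 were not tested at a mean FPKM of at least 5. With the 2 groups fitted alone the pool of spread is smaller, and the cause of the other changes was not tested. With a replicate block the counts were 13, 8, 1, 1 and 0, in the order VCR in NC cells, VCR in PTPN21 cells, PTPN21 with DMSO, PTPN21 with VCR and interaction, against 15, 9, 5, 1 and 1 without it, and same-numbered libraries were not seen to be paired. Low FPKM and the estimated depth limit mainly the PFKFB genes, HK2, the PDK genes and SLC16A3.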
